A study of Mus musculus with 6 samples.

Results

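Btg2 and 9 immediate early genes, Fos, Jun, Junb, Egr1, Atf3, Ier2, Ier3, Zfp36 and Dusp1, were examined in livers of mice whose hepatocytes lack AEG-1, the product of Mtdh. The 10 genes were chosen by symbol from the 46983 rows of the count table, and all 10 passed the filter on low counts that left 16441 genes. Btg2 was put forward with its knockout-to-control difference already known, so the differences of the 10 genes between the genotypes are given as a description and support no inference. The question was whether lower Btg2 goes together with lower levels of other early response genes.

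Immediate early genes are transcribed within minutes of a stimulus by factors that are already present in the cell, such as serum response factor and CREB, and their transcripts are short-lived. In liver they respond to feeding, hormones, injury and handling of the tissue. Btg2 is an antiproliferative member of the BTG/TOB family, a target of p53 and an adaptor that brings the CCR4-NOT deadenylase to messenger RNAs.

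The libraries came from whole livers of chow-fed, untreated mice aged 12 weeks on a C57BL/6 background. The knockout group is named AEG-1DHEP, a conditional knockout in hepatocytes, and the control group AEG-1fl/fl, so cells other than hepatocytes keep the gene in both groups. The sample titles name the controls WT, and neither the Cre driver nor the sex of the mice is stated in the sources used. Each group was labelled with 3 mice, but control replicates 1 and 2 held the same value in each of the 46983 rows. Differing by less than sampling noise, these columns were counted as 1 sample, named control replicate 1, which leaves 3 knockout libraries and 2 control libraries, 1 and 3. Library totals ran from 29557477 to 33685670 counts, so 3 counts correspond to 0.0891 to 0.101 CPM (counts scaled to library size), a limit that covers counting error only. Mtdh, the deleted gene, had 2.23 to 2.90 CPM after the deletion and 48.0 and 54.6 CPM in control livers, and its log2 fold change of -4.36 (SE 0.15) passed edgeR's quasi-likelihood test (adjusted p 0.000564). The 10 hepatocyte markers summed to 81900 to 114000 CPM. Knockout replicate 1 stood apart in skeletal muscle genes, whose 6 markers summed to 35.3 CPM there and to 0.659 to 1.19 CPM in the other libraries.

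Btg2 was lower in every knockout liver than in every control liver. Btg2 (ENSMUSG00000020423, chromosome 1, 134075170 to 134079120 on GRCm38, minus strand, 2 exons) had 8.10, 9.23 and 11.02 CPM in knockout replicates 1, 2 and 3, and 17.2 and 17.1 CPM in control replicates 1 and 3. The control values nearly coincided, and the highest knockout value lay well below them. The means were 9.45 ± 1.47 CPM (SD, n = 3) and 17.2 ± 0.0921 CPM (SD, n = 2), which put Btg2 in knockout livers at 55.1% of control. The log2 fold change was -0.86 (SE 0.16, 95% interval -1.23 to -0.49). In the edgeR test adjusted over all genes, 0 of the 10 genes were called, where 0.00608% of all genes were called, the single gene being Mtdh. DESeq2 called 1 of the 10, Btg2, where 0.116% of all genes were called in either direction and 0.0791% as lower. That DESeq2 call was lost without knockout replicates 1 and 2 and without control replicates 1 and 3, at adjusted p-values of 0.628, 0.111, 0.788 and 0.256, and was kept without knockout replicate 3 at 0.00264. Without knockout replicate 3, DESeq2 called 4 of the 10 genes, all lower, where 0.443% of all genes were called. Beside Btg2 they were Junb (log2 fold change -1.40, adjusted p 4.15e-07), Egr1 (-2.26, adjusted p 5.39e-05) and Zfp36 (-1.06, adjusted p 0.0178). In the edgeR fit without knockout replicate 3, none of these 4 genes was called, and limma-voom called 0 of the 10 on all libraries. The DESeq2 fits that leave out 1 library were added after the data had been seen. Knockout replicate 3 was the highest knockout library for each of the 4 genes, so leaving it out lowers their knockout mean by construction. Without knockout replicate 1, DESeq2 called 0 of the 10 and 6 of 16239 genes in all. Without knockout replicate 2, it called 0 of the 10 and 49 of 16189 genes in all. Leaving out control replicate 1 or 3 left 1 control library, and Btg2 then had a DESeq2 log2 fold change of -0.864 or -0.862. The edgeR log2 fold change of Btg2 was -0.76 without knockout replicate 1, the library with muscle transcripts.

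**Figure D1:**
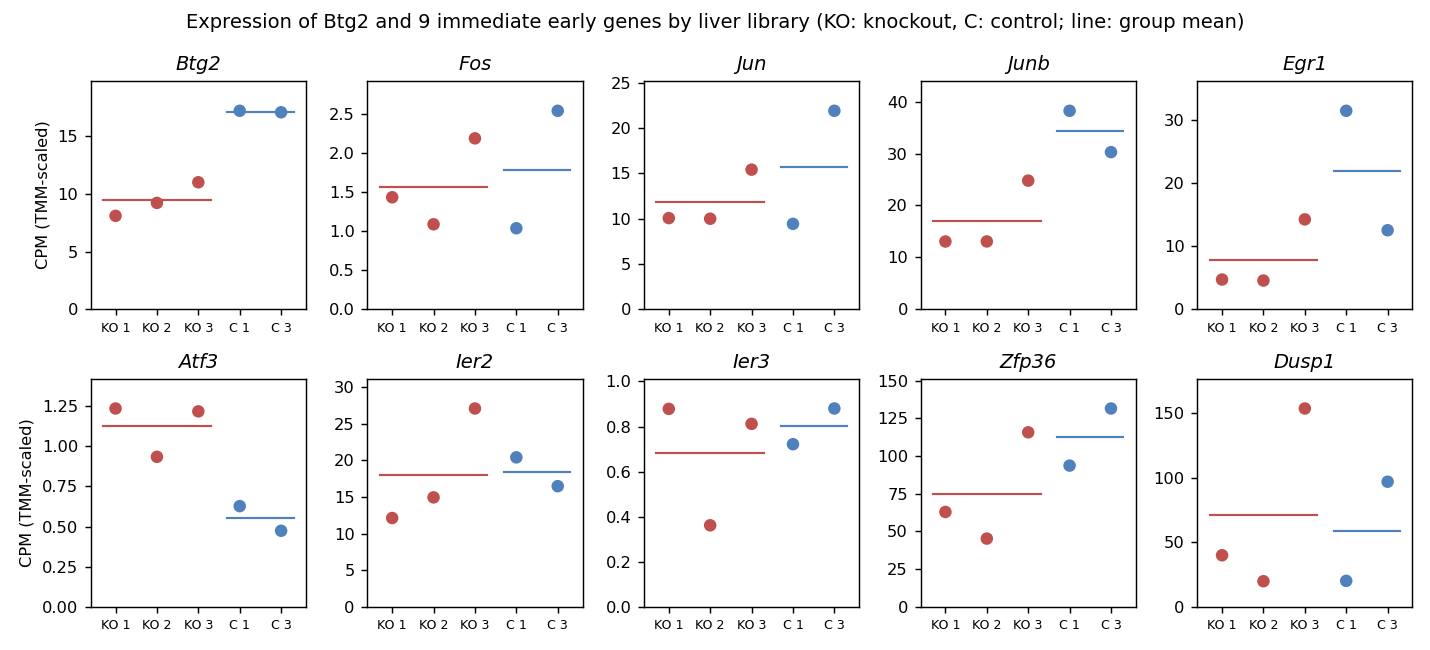
CPM (vertical axes, each from 0) of the 10 genes in each distinct library (horizontal axes), with knockout libraries in red, control libraries in blue and lines at the group means. The groups are apart for Btg2, Junb and Atf3, and knockout replicate 3 is the highest knockout library for 8 of the 10 genes.

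The promoter letters of 4 of the genes are shown because Btg2 and Junb are the genes with every knockout library below every control library, Dusp1 has the widest range of the 10 and Fos is the classic early response gene. The sequences are from RefSeq on GRCm38.p6, from a table in which 8 of the 10 genes were matched, and read 5′ to 3′ towards the start of transcription. Capitals mark TGACG or its reverse complement CGTCA, the half-site of the cAMP response element (CRE), and the full element TGACGTCA contains the half-site on both strands.
Btg2, chr1:134079156-134079405, minus strand: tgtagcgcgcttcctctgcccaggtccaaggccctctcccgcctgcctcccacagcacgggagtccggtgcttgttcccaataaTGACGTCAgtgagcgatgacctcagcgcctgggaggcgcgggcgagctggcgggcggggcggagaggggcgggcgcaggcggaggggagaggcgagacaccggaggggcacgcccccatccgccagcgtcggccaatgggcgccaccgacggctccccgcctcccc
Junb, chr8:84978749-84978998, minus strand: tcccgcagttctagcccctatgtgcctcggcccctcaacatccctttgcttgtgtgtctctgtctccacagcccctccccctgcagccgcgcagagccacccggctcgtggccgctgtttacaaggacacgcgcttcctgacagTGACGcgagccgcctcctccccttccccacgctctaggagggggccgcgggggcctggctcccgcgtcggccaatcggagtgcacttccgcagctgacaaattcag
Fos, chr12:85473640-85473889, plus strand: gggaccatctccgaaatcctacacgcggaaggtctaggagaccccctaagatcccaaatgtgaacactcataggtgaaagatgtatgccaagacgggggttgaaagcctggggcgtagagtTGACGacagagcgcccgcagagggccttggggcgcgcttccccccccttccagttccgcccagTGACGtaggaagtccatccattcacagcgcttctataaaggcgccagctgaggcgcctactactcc
Dusp1, chr17:26508520-26508722, minus strand: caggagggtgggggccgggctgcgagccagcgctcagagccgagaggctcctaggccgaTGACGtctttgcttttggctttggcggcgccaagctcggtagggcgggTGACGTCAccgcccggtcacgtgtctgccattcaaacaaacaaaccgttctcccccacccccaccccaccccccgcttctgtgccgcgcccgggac
The full element TGACGTCA was found in the 250 bases before the start of Btg2, 166 to 159 bases upstream, and of Dusp1, 143 to 136 bases upstream. Of 32817 mouse promoters of that length, 1.55% hold it. The half-site, on either strand, was in 5 of the 8 promoters (Btg2, Fos, Junb, Atf3 and Dusp1) and in 17.7% of all promoters. The serum response (CArG) box was in 1 of the 8 promoters, that of Zfp36, 58 to 49 bases upstream, and in 1.47% of all promoters. Egr1 and Ier2 were the genes without a promoter sequence. Bases farther than 250 upstream were not searched, so a gene without a match here may hold the element elsewhere. The EGR site GCGGGGGCG was in the Zfp36 promoter and in 2.57% of all promoters, TATAAA in the Fos promoter and in 12.4%, and the AP-1 site TGANTCA in 0 of the 8 and in 6.75%, all searched on both strands. Whether the full element bears on the values of Btg2 and Dusp1 across the libraries was not tested. Printed stretches end at the gene start of the table's annotation where that lies upstream of the RefSeq start, so that of Dusp1 has 203 bases, and positions count back from the RefSeq start. A match is a description of the letters and not of binding.

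The AP-1 subunits differed from one another. Junb (ENSMUSG00000052837, chromosome 8, 84976909 to 84978748) encodes an AP-1 subunit that often opposes Jun. It had 13.05 and 13.06 CPM in knockout replicates 1 and 2, 24.8 CPM in knockout replicate 3, and 38.3 and 30.3 CPM in the control libraries. All knockout values lay below both controls, with knockout replicate 3 closer to the controls than to the other knockouts. The knockout mean was 49.5% of the control mean, with a log2 fold change of -1.02 (SE 0.30, 95% interval -1.73 to -0.30). Junb and Btg2 were the 2 of the 10 genes with all knockout libraries below all controls, where 8.72% of all genes were so placed.

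Jun (ENSMUSG00000052684, chromosome 4, 95049034 to 95052222) encodes the AP-1 subunit that pairs with Fos. Jun had 10.05, 9.98 and 15.4 CPM in knockout livers and 9.41 and 21.9 CPM in the controls, so the controls enclosed all knockout values. The log2 fold change was -0.41 (SE 0.37). Jun shares 232 exon bases, 7.28% of its exon length, with the antisense gene Junos, and since the strand setting of the counting is not given here, reads from the shared bases cannot be assigned to either. Fos (ENSMUSG00000021250, chromosome 12, 85473890 to 85477273), the partner of Jun, was low, with 1.43, 1.09 and 2.19 CPM in knockout and 1.04 and 2.54 CPM in control libraries, or 33 to 75 counts. Its groups overlapped, and its log2 fold change of -0.18 (SE 0.46) had a 95% interval from -1.28 to 0.91. That interval holds both a 2-fold lower level of Fos and no difference.

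Egr1, the zinc finger factor that is a standard readout of growth factor signalling, was lower in 2 knockout libraries. Egr1 (ENSMUSG00000038418, chromosome 18, 34859823 to 34864984) had 4.69, 4.52 and 14.2 CPM in knockout replicates 1, 2 and 3, and 31.4 and 12.5 CPM in control replicates 1 and 3. Knockout replicate 3 lay between the controls, which themselves differed 2.51-fold on the log2 CPM scale with a prior count of 2. The log2 fold change was -1.49 (SE 0.59, 95% interval -2.89 to -0.09), moving to -0.68 when control replicate 1 was left out and to -2.25 when knockout replicate 3 was.

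Atf3, a stress-induced factor of the ATF/CREB family that mostly represses, went the other way. Atf3 (ENSMUSG00000026628, chromosome 1, 191170296 to 191218039) had 1.24, 0.935 and 1.22 CPM in knockout libraries, or 38, 31 and 39 counts, and 0.628 and 0.474 CPM in control libraries, or 20 and 14 counts. Every knockout value was above both controls, a placement shared by 8.16% of all genes, and 1 of the 10 genes had it. The log2 fold change was 1.03 (SE 0.31, 95% interval 0.30 to 1.76).

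The genes that end the early response, Zfp36 and Dusp1, overlapped between the genotypes. Zfp36 (ENSMUSG00000044786, chromosome 7, 28376784 to 28379255) encodes tristetraprolin, which binds AU-rich elements and speeds the decay of early response messenger RNAs. Zfp36 had 62.9, 45.2 and 115.7 CPM in knockout livers and 93.6 and 131.5 CPM in the controls, so knockout replicate 3 lay between the controls and the other knockouts below them. Its log2 fold change was -0.59 (SE 0.38), and -1.06 without knockout replicate 3. Dusp1 (ENSMUSG00000024190, chromosome 17, 26505590 to 26508519), the phosphatase that switches off MAP kinases, had 39.9, 19.8 and 153.5 CPM in knockout libraries and 20.1 and 96.8 CPM in controls. The knockout libraries spanned 7.75-fold and the controls lay wholly within them. The log2 fold change of 0.28 (SE 0.94, 95% interval -1.97 to 2.54) turned to -0.97 without knockout replicate 3 and to -0.45 without control replicate 1.

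Ier2 and Ier3 also overlapped between the genotypes. Ier2 (ENSMUSG00000053560, chromosome 8, 84661331 to 84662852), a nuclear early response protein, had 12.1, 15.0 and 27.1 CPM in knockout and 20.4 and 16.5 CPM in control libraries. The controls lay within the knockout range, and the log2 fold change was -0.03 (SE 0.33). Ier3 (ENSMUSG00000003541, chromosome 17, 35821684 to 35822923), a regulator of cell survival, had 0.879, 0.362 and 0.812 CPM in knockout and 0.722 and 0.880 CPM in control libraries, or 12 to 27 counts. Its log2 fold change was -0.23 (SE 0.42).

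**Figure D2:**
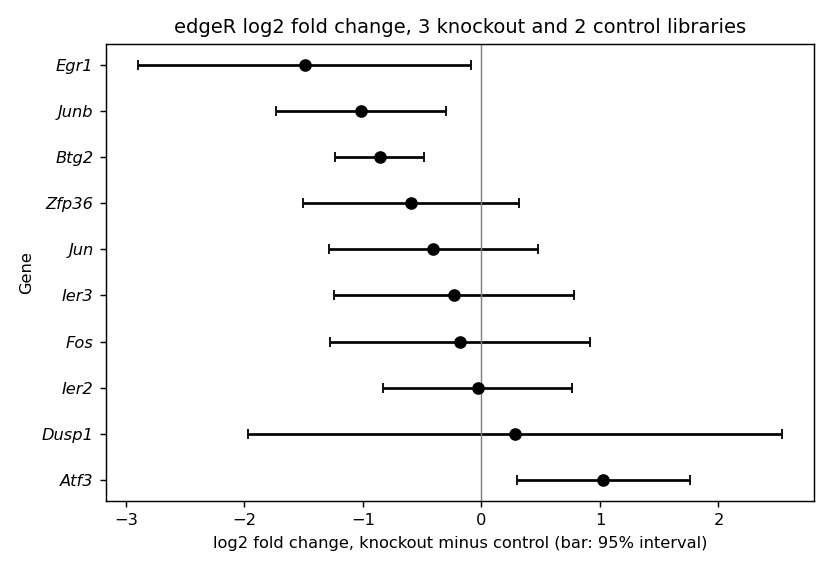
Log2 fold change of each gene, knockout minus control, from the edgeR fit (horizontal axis), with bars for the 95% interval. The intervals of Btg2, Junb and Egr1 lie below 0, that of Atf3 above 0, and the interval of Dusp1 reaches from -1.97 to 2.54.

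Of the 10 genes, 8 had a log2 fold change below 0, against 47.9% of all genes, with a median of -0.32 against 0.01 over all genes. At an unadjusted p under 0.05, edgeR had 3 of the 10 lower (Btg2, Junb and Egr1), where 1.8% of all genes were lower, and 1 higher (Atf3), where 1.63% were higher. Since these genes were picked with the contrast known, nothing is read from these shares. The count of 8 was 5 without knockout replicate 2. The count of genes with all knockout libraries below all controls, 2 in all, was 5 without knockout replicate 3 (Btg2, Junb, Egr1, Ier2 and Zfp36) and 6 without control replicate 1 (Btg2, Fos, Jun, Junb, Ier3 and Zfp36). With those libraries left out, 15.3% and 23.5% of all genes were so placed.

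Compared per kilobase of exon (RPKM, CPM divided by exon length), the 10 genes covered a wide range of levels. Zfp36 had the highest mean level with 50.1 RPKM, followed by Dusp1 with 24.5 RPKM, whose libraries ran from 7.35 to 56.9 RPKM and so overlapped those of Zfp36 at 25.2 to 73.4 RPKM. Junb with 13.0 and Ier2 with 12.0 RPKM came next and overlapped each other. Btg2 followed with 4.57 RPKM, between 2.95 and 6.28 RPKM, and did not differ beyond its spread from Jun with 4.19 or Egr1 with 3.00 RPKM. Fos, Ier3 and Atf3 were the lowest with 0.704, 0.646 and 0.417 RPKM.

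Between mice of one genotype, Btg2 varied about as much as genes of similar level, and most of the others varied more than such genes. Btg2 was put forward with its genotype difference known, so its spread is given as a description. The spread is given as edgeR's biological coefficient of variation, the relative spread within groups beyond counting error. Btg2 had 0.15, at the 32.0th percentile of all genes and the 53.9th percentile of the 2424 genes of similar level. Dusp1 had 0.678, at the 99.6th percentile of all genes, and Egr1 had 0.452, at the 97.7th. Fos (0.351), Zfp36 (0.308), Jun (0.293), Ier2 (0.267) and Junb (0.246) were also at or above the 90th percentile of genes of similar level, which makes 7 of the 10. Ier3 (0.283) was at the 73.1st and Atf3 (0.19) at the 20.6th percentile of their level. The median of the 10 was 0.288, against 0.172 over all genes. These values rest on 5 libraries and are shrunk towards a trend, and the difference in spread was not tested.

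**Figure D3:**
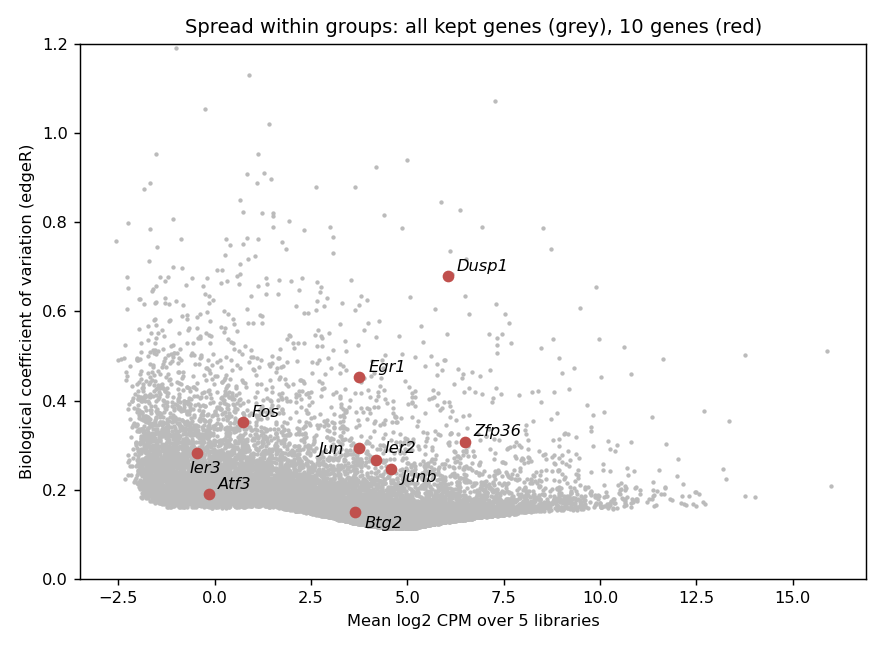
Biological coefficient of variation within groups (vertical axis, linear, cut at 1.2 with 5 genes above it) against the mean log2 CPM (horizontal axis) for all kept genes in grey and the 10 genes in red. Dusp1, at 0.678, and Egr1, at 0.452, lie far above the bulk of genes of their level, and Btg2, at 0.15, lies within it.

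The libraries high in one of the genes were often high in others. Among the knockout livers, replicate 3 was the highest for 8 of the 10 genes, where it was the highest for 36.4% of all genes. Replicate 2 was the lowest for 7 of the 10, a count whose share over all genes was not computed. Dusp1 in knockout replicate 3 was 5.14 times the mean of replicates 1 and 2, Egr1 3.09 times, Zfp36 2.14 times, Ier2 2.001 times and Junb 1.90 times, but Btg2 1.27 times. The controls did not order the genes in one way. Control replicate 1 was the higher control for 5 genes (Btg2, Junb, Egr1, Atf3 and Ier2) and control replicate 3 for the other 5 (Fos, Jun, Ier3, Zfp36 and Dusp1). The 2 controls differed 4.81-fold in Dusp1, 2.37-fold in Fos and 2.32-fold in Jun but 1.01-fold in Btg2 on the log2 CPM scale with a prior count of 2.

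**Figure D4:**
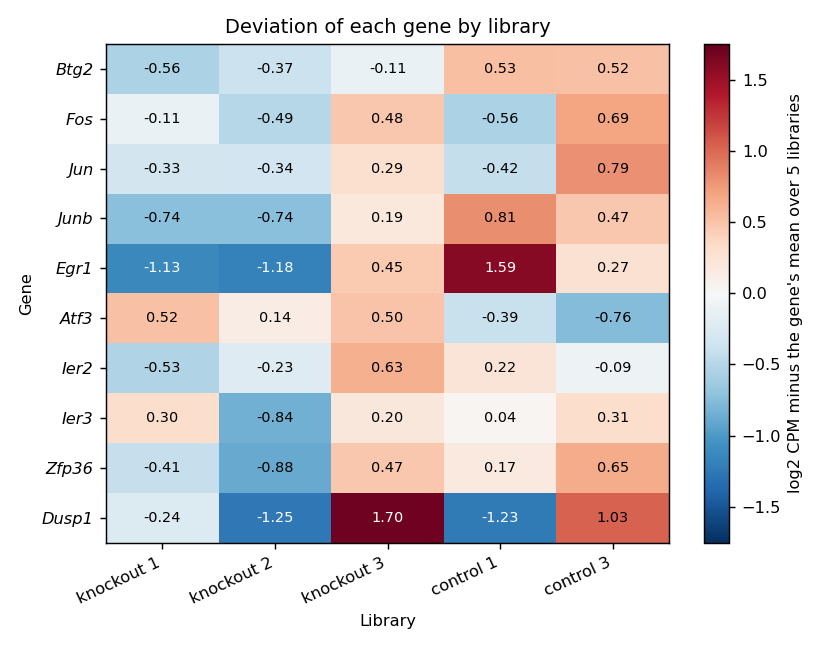
Deviation of log2 CPM (prior count 2) from each gene's own mean over the 5 distinct libraries (colour and printed value) for the 10 genes (rows) in each library (columns). Btg2 and Junb are low in all or most knockout columns and high in both control columns, while Dusp1 runs from -1.25 in knockout replicate 2 to 1.70 in knockout replicate 3.

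Likeness to Btg2 was measured as the root mean square difference of these deviations over the 5 libraries. This measure includes the difference between the genotypes, which was known when Btg2 was put forward. A gene with a similar genotype difference is near Btg2 by construction, so the ranks are a description. Among 10103 other genes of at least 5 CPM, the median difference was 0.475. Junb, at 0.261, was the most like Btg2 of the 9 and would rank 32nd. Zfp36 (0.394) and Ier2 (0.454) were also nearer than the median gene. Jun (0.487), Ier3 (0.518), Fos (0.594), Egr1 (0.71), Atf3 (0.922) and Dusp1 (1.23) were farther, although Egr1 had the most negative log2 fold change of the 10. Fos, Ier3 and Atf3 had means of 1.66, 0.731 and 0.898 CPM, below the limit of 5 CPM for the genes they were compared with. The 5 most similar genes were Tent5c (0.12), Gm13841 (0.138), Hal (0.157), Tent5a (0.16) and S1pr5 (0.182). Tent5c and Tent5a encode noncanonical poly(A) polymerases, Hal histidine ammonia-lyase and S1pr5 a sphingosine-1-phosphate receptor, and Gm13841 is a processed pseudogene, whose counts may come from its parent gene. Tent5c had 7.09, 7.12 and 7.90 CPM in knockout and 12.39 and 11.85 CPM in control libraries, a log2 fold change of -0.72 (SE 0.13). Tent5a had 7.78, 6.79 and 9.87 CPM against 12.4 and 14.1 CPM. These genes were picked for this likeness, and none was called by edgeR. DESeq2 called Hal (adjusted p 0.0218) and Tent5c (adjusted p 0.0440).

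The 11 further lists, on the wider early response, its inputs and partners, and hormone, p53 and clock targets, held 140 tested genes, each counted once, of which 69 were higher and 71 lower, with a median log2 fold change of -0.02. None of the 140 was called by edgeR (0 higher and 0 lower), by DESeq2 (0) or by limma-voom (0). Of all genes, 0.00608%, 0.116% and 0.00608% were called by these tools. At an unadjusted edgeR p under 0.05, 3 of the 140 were higher and 4 lower, where 1.63% and 1.8% of all genes were. The list of 35 other early response genes had 18 higher and 17 lower (median 0.02). In it Plk3, a stress-responsive kinase, had 30.8, 33.2 and 43.9 CPM in knockout and 22.2 and 24.1 CPM in control libraries, a log2 fold change of 0.64 (SE 0.17). Its relative Plk2 had a value of opposite sign, -0.47 (SE 0.14), with 11.3, 13.6 and 12.8 against 19.0 and 15.8 CPM, and the kinase gene Pim1 had -0.37 (SE 0.21), or -0.07 without control replicate 1. Knockout replicate 3 was the highest knockout library for 22 of the 35.

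Among 14 other AP-1 and ATF/CREB subunits, 11 were lower and 3 higher, from -0.52 to 0.30 (median -0.07). Atf4, the factor of the amino acid response, had a log2 fold change of 0.26 (SE 0.15), Batf3 -0.52 (SE 0.38) and Jund, the constitutive Jun relative, -0.20 (SE 0.16). Of the EGR and NR4A factors and EGR corepressors, 4 of 8 had enough counts, with 1 higher and 3 lower (median -0.37). Nr4a2, an orphan nuclear receptor, had 0.651, 1.24 and 0.531 CPM in knockout and 0.314 and 0.339 CPM in control libraries, a log2 fold change of 1.30 (SE 0.48). The corepressors Nab1 and Nab2, which EGR factors bind, had -0.29 (SE 0.13) and -0.62 (SE 0.34), and Nab2 had -0.01 without control replicate 1. Egr4 had 0 counts in every library, and Egr3 a single count in all.

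Inputs to the early response showed no shared direction, with 9 of 18 inducers on the SRF, TCF and CREB side higher and 9 lower (median 0.00). The kinase gene Rps6ka3 had -0.27 (SE 0.11), the ternary complex factor gene Elk3 -0.35 (SE 0.16) and Rps6ka1 0.54 (SE 0.26), the last 0.17 without control replicate 1. Of 7 MAPK phosphatases other than Dusp1, 3 were higher and 4 lower (median -0.09), with -0.58 (SE 0.23) for Dusp7, 0.25 (SE 0.19) for Dusp6 and 0.26 (SE 0.22) for Dusp10. Dusp7 had -0.25 without control replicate 3.

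Relatives and partners of Btg2 had small values in both directions. Of 5 other BTG/TOB and tristetraprolin family members, 3 were higher and 2 lower (median 0.15). Btg1, the closest relative, had 29.1, 26.5 and 28.1 CPM in knockout and 25.8 and 24.3 CPM in control libraries, a log2 fold change of 0.15 (SE 0.10). Zfp36l2 had -0.22 (SE 0.14) and Zfp36l1 0.20 (SE 0.15). The 14 genes of the CCR4-NOT deadenylase and poly(A) machinery were split 7 to 7 (median -0.01), all between -0.20 and 0.17. Among them, Pabpc1, the poly(A)-binding protein, had -0.18 (SE 0.12), Cnot1, the scaffold of CCR4-NOT, -0.20 (SE 0.13) and Cnot8, a deadenylase subunit that BTG proteins bind, 0.17 (SE 0.14). Of 18 p53 targets, 11 were higher and 7 lower (median 0.10), with -0.32 (SE 0.15) for Sesn1, 0.24 (SE 0.16) for Perp and 0.24 (SE 0.17) for Trp53inp1. Cdkn1a, the best-known p53 target, spanned 0.874 to 9.38 CPM in knockout livers, and its value of 0.99 (SE 0.95) turned to -0.70 without knockout replicate 2.

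Targets of fasting hormones, glucocorticoids and the clock varied between livers as well. Of 10 cAMP and fasting targets, 6 were higher and 4 lower (median 0.15). Ppargc1a, the fasting coactivator, had 0.51 (SE 0.18), Igfbp1, an insulin-repressed binding protein, -0.75 (SE 0.27), and G6pc, the glucose-6-phosphatase, 0.79 (SE 0.63) with 371 to 1227 CPM in knockout and 202 and 692 CPM in control libraries. Of 10 glucocorticoid targets, 7 were higher and 3 lower (median 0.19), with 0.97 (SE 0.46) for Zbtb16 and 0.54 (SE 0.28) for Fkbp5. Knockout replicate 3 was the highest knockout library for 4 of these 10 targets, where it was the highest for 36.4% of all genes. Fkbp5, among those 4, was at 27.6, 25.3 and 47.1 CPM in knockout replicates 1, 2 and 3. The same library was the highest knockout library for 11 of the 16 clock genes and 8 of the 14 other AP-1 and ATF/CREB subunits. It was so for 4 of the 5 BTG/TOB and tristetraprolin relatives, 0 of the 18 p53 targets and 64 of the 140 genes of the 11 further lists. Of 16 clock genes, 9 were higher and 7 lower (median 0.06), with -0.68 (SE 0.30) for Dbp, 0.82 (SE 0.41) for Cry1 and -0.18 (SE 0.12) for Cry2. Dbp had 142 CPM in control replicate 1 and 60.2 to 67.5 CPM in the other distinct libraries. The knockout livers were less alike in some other clock genes. Arntl had 0.911, 6.21 and 0.687 CPM in knockout replicates 1, 2 and 3, and 2.45 and 2.54 CPM in the controls. Per1 had 42.6, 10.5 and 48.8 CPM in knockout livers and 20.0 and 32.3 CPM in the controls. Cry2 was even, at 45.0, 44.1 and 47.5 CPM in knockout livers. The part of hormone state or clock phase in the early response values was not tested.

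**Figure D5:**
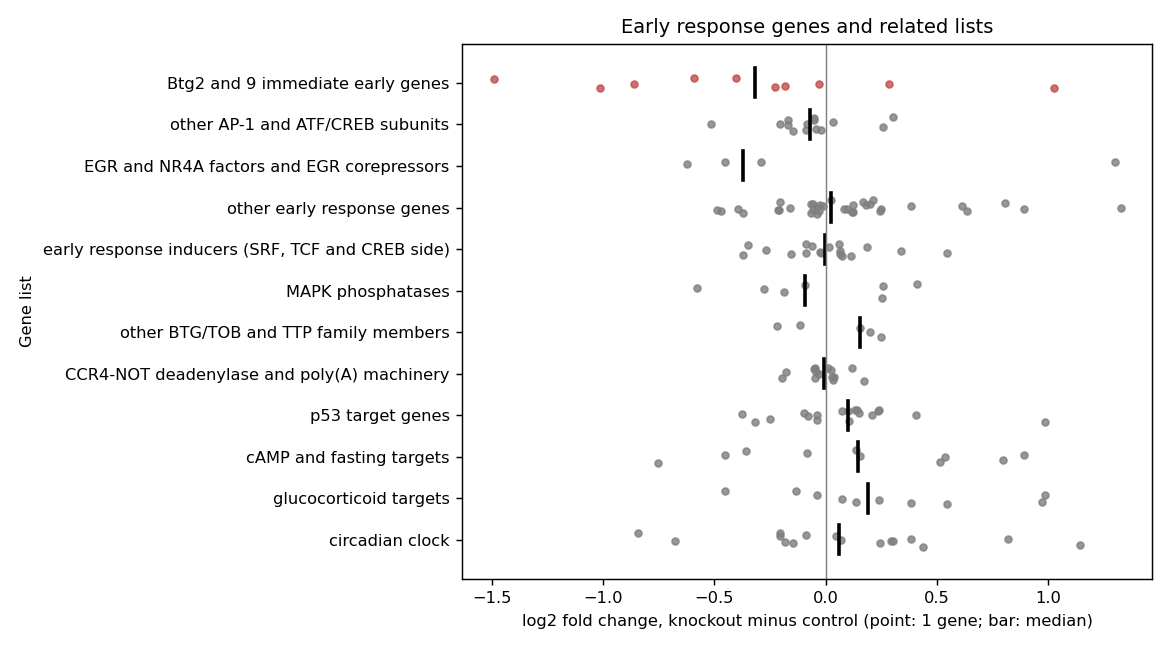
Log2 fold change, knockout minus control (horizontal axis), of each tested gene (points) in each list (rows), with a bar at the list median. The 10 genes in red spread from -1.49 to 1.03, and the medians of the lists of 5 or more other genes lie between -0.09 and 0.19.

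Whole liver holds several cell types that express early response genes, and in bulk RNA fewer cells of a type and less RNA per cell cannot be told apart. Markers of sinusoidal endothelial cells were lower for 10 of 10, summing to 222 to 303 CPM in knockout and 285 to 345 CPM in control libraries. Kupffer cell and macrophage markers were lower for 9 of 10, at 306 to 374 against 332 to 421 CPM, and stellate cell and pericyte markers for 9 of 10, at 279 to 383 against 351 to 363 CPM. The 8 neutrophil markers, 2 of them tested and both lower, summed to 3.25 to 3.68 CPM in knockout and 4.47 to 5.87 CPM in control libraries. Erythroid markers were lower for 5 of 5, at 424 to 543 against 503 to 673 CPM. Adipocyte markers, 3 of 4 tested ones higher, summed to 23.9 and 31.8 CPM in knockout replicates 1 and 2 and to 11.4 to 14 CPM in knockout replicate 3 and the controls. The defining adipocyte markers Adipoq, Plin1 and Lep had at most 1 count in any library. T and NK cell, B and plasma cell and cholangiocyte markers overlapped between the groups. They were lower for 2 of 3, 5 of 7 and 4 of 6 tested genes. Their sums were 2.93 to 3.5, 16.1 to 26.2 and 50.5 to 56.7 CPM in knockout libraries. In control libraries they were 2.78 to 3.11, 14.9 to 25.2 and 37.2 to 58.7 CPM. No marker of these lists was at 0 in every library, and their part in the values of Btg2 and the early response genes was not tested.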

How the data were processed

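Per the labels' protocols, total RNA of whole livers was made into TruSeq libraries and sequenced on a HiSeq2500. The authors deposited 1 table of read counts per gene, not normalized. The tools featureCounts 1.4.6-p4, Subread 1.4.6-p4, Trimmomatic 0.33 and FastQC, and the builds mm10 and GRCm38, stand in the submitters' processing notes. No source used here gives the strand setting or the annotation. Symbols came from GENCODE vM21, which matched 46488 of 46983 identifiers; 4 listed names were matched through RefSeq synonyms.

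Identical columns were counted once. Genes were kept by filterByExpr, scaled by TMM and tested by quasi-likelihood in edgeR 4.0.16 under R 4.3.3, two-sided, with Benjamini-Hochberg adjustment over 16441 genes at a threshold of 0.05; the test was checked on simulated data. Alternatives used DESeq2 1.42.0, limma 3.58.1 (voom), other scalings, no filter, a replicate block and each library left out. The labels name the libraries biological replicates.

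The 10 genes and the lists were chosen with earlier results of these data known. Named genes are the 10, Mtdh, the 3 genes of each list with the smallest p, and the 5 nearest to Btg2. Egr3, Egr4, Junos, Adipoq, Plin1, Lep, Arntl and Per1 were named after their values were seen.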

Additional observations from a re-analysis of the deposited data

How the results depend on the processing

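Btg2, Junb, Egr1, Zfp36 and Atf3 kept their direction in all 13 alternative fits, and Btg2 ran from -0.99 to -0.76 in log2 fold change. Across the fits with 1 library left out, the count of lower genes called by edgeR was 1 to 6, that of higher genes 0, that of the 10 genes below 0 was 5 to 9, that with all knockout libraries below all controls 2 to 6, and the median of the 10 was -0.807 to -0.127. In the same fits, list medians ran from -0.143 to 0.146 for other early response genes, -0.164 to 0.0331 for other AP-1 and ATF/CREB subunits, -0.458 to -0.16 for EGR and NR4A factors, -0.0279 to 0.0683 for inducers, -0.171 to 0.222 for MAPK phosphatases, -0.0974 to 0.193 for BTG/TOB and tristetraprolin relatives, -0.0336 to 0.0209 for CCR4-NOT, -0.0891 to 0.158 for p53 targets, -0.0614 to 0.295 for cAMP and fasting targets, -0.137 to 0.291 for clock genes and 0.0439 to 0.512 for glucocorticoid targets. Log2 fold changes that changed sign ran from -0.70 to 0.60 for Fos, -0.90 to 0.33 for Jun, -0.45 to 0.19 for Ier2, -0.45 to 0.08 for Ier3, -0.97 to 1.83 for Dusp1, -0.93 to 0.09 for Batf3 and -0.70 to 1.46 for Cdkn1a. Of the 33 genes named from the other lists, none of them called with all 5 libraries, 25 moved by over 1.5 times or changed sign in at least 1 of these fits, Nab2 from -1.05 to -0.01 and Rps6ka1 from 0.17 to 1.04. Without a low-count filter 3 genes were called lower, and DESeq2 called 13 lower and 6 higher. Upper-quartile scaling moved the CCR4-NOT median to -0.0342. On all 6 columns as deposited, the inducer median was 0.0353 and Fos 0.04. The cause of these changes was not tested.

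The replicate numbers were not taken to pair the livers, since only numbers 1 and 3 occur in both groups of distinct libraries and the deviations of same-numbered libraries correlated at -0.0246 and 0.138. With the replicate number as a block, which leaves 1 residual degree of freedom, 0 genes were called lower, Mtdh had -4.28 at an adjusted p of 0.0517, Fos turned to 0.10, Ier3 to 0.08 and Cdkn1a to -0.73, and the medians were -0.209 for EGR and NR4A factors and -0.0977 for p53 targets. The DESeq2 fits without single libraries were added after the data had been seen. With 2 distinct control livers, the spread of the control group rests on a single difference for every gene.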

Other observations

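Some genes outside the 10 had library values in nearly the same order as Dusp1; they were picked after their values were seen, and no test was run. Tsc22d3, a glucocorticoid-induced leucine zipper gene, had 79.2, 34.7 and 100 CPM in knockout replicates 1, 2 and 3 and 34.3 and 86.6 CPM in control replicates 1 and 3. Tob1, a relative of Btg2, had 142, 115 and 191 CPM in knockout livers and 131 and 192 CPM in the controls. Both were lowest in knockout replicate 2 or control replicate 1, as Dusp1 was, while Btg2 was nearly level in control replicates 1 and 3, at 17.2 and 17.1 CPM. The kinase gene Sik1, a CREB target, had 24.1, 8.80 and 68.0 CPM in knockout livers and 21.9 and 14.3 CPM in the controls, so it was highest in knockout replicate 3 but not high in control replicate 3.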
